A study of Mus musculus with 2 samples.

Results

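The genes described here are 10 core genes of the Hippo pathway, chosen by name, with earlier results of these data known. These genes are the co-activators Yap1 and Wwtr1, the 4 TEAD factors Tead1, Tead2, Tead3 and Tead4, the kinases Lats1 and Lats2, the adaptor Sav1 and the TEAD co-repressor Vgll4. They are 10 of the 55536 annotated genes in the tables, and all 10 were detected, with at least 1 TPM (TPM is a relative abundance per transcript, corrected for length) in both hearts. Total RNA was measured in whole heart from 2 female mice of strain B6CASTF1/J at 10 days of age, with 1 library per animal made from 300 ng of RNA and with ERCC spike-in RNAs added. By its name the strain is the F1 of C57BL/6J with CAST/EiJ, the labels give no treatment, and the females are numbered separately in the labels but stand under 1 donor record. The 2 libraries form a single group, so the measurements below are levels, ratios between genes within a heart, transcript forms, and the spread between the 2 hearts.

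The Hippo pathway is a kinase cascade that restrains organ growth. The kinases MST1 and MST2 (genes Stk4 and Stk3), held by the adaptor SAV1, activate LATS1 and LATS2, which phosphorylate YAP and TAZ (genes Yap1 and Wwtr1) so that they are kept in the cytoplasm or degraded. YAP and TAZ that reach the nucleus bind TEAD factors, the DNA-binding partners without which they have little access to their targets, and VGLL4 competes with them for TEAD. In the heart the pathway is known for limiting cardiomyocyte proliferation, and TEAD factors are also known to bind the MCAT element, CATTCC, in promoters of muscle genes.

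Replicates 1 and 2 held 40403041 and 39849597 expected counts, and the spike-ins took 0.541% and 0.575% of them. All 5 markers were detected in each of the lists for cardiomyocytes, fibroblasts, endothelial cells, mural cells, epicardium and macrophages, whereas 0 of 5 skeletal muscle and 0 of 5 lung markers reached 1 TPM in both hearts. The hearts differed in 3 marker lists that bear on dissection and blood content: summed atrial markers were 516 and 953 TPM, summed red cell markers 5269 and 12984 TPM, and summed fat cell markers 64.5 and 10.1 TPM in replicates 1 and 2. In whole tissue, fewer cells of a type and less RNA per cell cannot be told apart.

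The TEAD genes are shown first through the exons that set their forms apart. Tead1 and Tead3 each hold 2 annotated 63-nt coding exons at the end of the TEA domain, the DNA-binding domain of these factors, and Tead2 and Tead4 hold an exon of the same length at the matching place. Those exons are given below in the sense of the gene, 5′ to 3′, from the GENCODE M21 transcripts on mm10, and capitals mark the bases that differ from the downstream exon of Tead1.
Tead1 upstream exon, chr7:112841888-112841950, plus strand: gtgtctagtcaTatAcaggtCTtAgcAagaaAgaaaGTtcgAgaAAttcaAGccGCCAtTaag
Tead1 downstream exon, chr7:112842040-112842102, plus strand: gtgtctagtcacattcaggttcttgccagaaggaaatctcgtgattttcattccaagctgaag
Tead2 exon, chr7:45219144-45219206, plus strand: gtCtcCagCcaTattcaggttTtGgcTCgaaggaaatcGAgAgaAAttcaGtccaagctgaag
Tead3 upstream exon, chr17:28336511-28336573, minus strand: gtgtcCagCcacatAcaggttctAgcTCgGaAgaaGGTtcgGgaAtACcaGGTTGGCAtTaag
Tead3 downstream exon, chr17:28336274-28336336, minus strand: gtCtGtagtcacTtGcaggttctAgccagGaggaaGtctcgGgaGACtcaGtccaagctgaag
Tead4 exon, chr6:128251540-128251602, minus strand: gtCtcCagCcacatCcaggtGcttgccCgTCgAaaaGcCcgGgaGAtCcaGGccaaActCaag
The downstream exons of Tead1 and Tead3 were equal at 51 of 63 bases and the upstream exons at 46 of 63. Within Tead1 the upstream and downstream exons were equal at 44 of 63 bases, and within Tead3 at 40 of 63. The Tead2 exon was equal to the Tead1 downstream exon at 49 of 63 bases and to the Tead1 upstream exon at 43 of 63.

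Tead1 was the most abundant of the 10 genes. The gene (ENSMUSG00000055320.17, chr7:112679318-112906807, plus strand) was at 53.87 and 59.47 TPM in replicates 1 and 2, a mean of 56.7 ± 3.96 TPM (SD, n = 2), from 10651 and 11260 expected counts. It stood at the 89.9th percentile of the 11718 detected nuclear protein-coding genes. Tead1 supplied 71.3% and 77.8% of the summed TPM of the 4 TEAD genes, and 68.8% and 73.9% in the second set of deposited transcript tables, whose column headers are those of kallisto (the first set has those of RSEM).

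The other 3 TEAD genes were each lower than Tead1 in both hearts. Tead2 (ENSMUSG00000030796.17, chr7:45215753-45233644, plus strand) was at 13.04 and 7.40 TPM, a mean of 10.2 ± 3.99 TPM (SD, n = 2). Tead3 (ENSMUSG00000002249.21, chr17:28331671-28350817, minus strand) was at 6.19 and 7.46 TPM, a mean of 6.83 ± 0.898 TPM. Tead4 (ENSMUSG00000030353.15, chr6:128224288-128300823, minus strand) was at 2.46 and 2.13 TPM, a mean of 2.30 ± 0.233 TPM, from 181 and 150 expected counts. All 4 encode DNA-binding factors of the same family. Tead2 exceeded Tead3 in replicate 1 but not in replicate 2, whereas in the kallisto tables Tead2 was the higher in both hearts, at 16.9 and 13.3 TPM against 6.96 and 7.06 TPM. The mean within-heart log2 TPM ratio to Tead1 (with 0.1 added) was -2.51 ± 0.67 for Tead2, -3.04 ± 0.09 for Tead3 and -4.57 ± 0.24 for Tead4 (SD, n = 2). Each ratio kept its sign in both hearts and exceeded 3 SD, which is the criterion used here for genes that stand apart, since 2 animals allow no exact p below 0.5.

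The co-activators came next. Wwtr1, which encodes TAZ (ENSMUSG00000027803.14, chr3:57455649-57575910, minus strand), was at 33.47 and 33.60 TPM, a mean of 33.5 ± 0.0919 TPM (SD, n = 2). Yap1 (ENSMUSG00000053110.13, chr9:7931999-8004596, minus strand) was at 28.42 and 28.91 TPM, a mean of 28.7 ± 0.346 TPM. By kallisto the means were 39.3 TPM for Wwtr1 and 36.2 TPM for Yap1. The SDs thus give the spread between hearts and not the larger shift between tables. Wwtr1 was thus the higher of the co-activators in both hearts, by 0.23 ± 0.01 on the log2 TPM scale in the RSEM table and 0.12 ± 0.04 in the kallisto table. Wwtr1 made up 53.9 ± 0.232% of the summed TPM of the pair. The 4 TEAD genes summed to 75.56 and 76.46 TPM and the co-activators to 61.89 and 62.51 TPM, so the TEAD sum was 1.22 times the co-activator sum in each heart (1.16 and 1.19 times in the kallisto tables).

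Among the inhibitory members, Lats2 exceeded Lats1. Lats2 (ENSMUSG00000021959.16, chr14:57689662-57758388, minus strand) was at 18.81 and 17.44 TPM, a mean of 18.1 ± 0.969 TPM (SD, n = 2). Lats1 (ENSMUSG00000040021.13, chr10:7681214-7716460, plus strand) was at 8.14 and 7.60 TPM, a mean of 7.87 ± 0.382 TPM. Both genes encode kinases that phosphorylate YAP and TAZ, and Lats2 is itself listed among the targets of YAP and TAZ. The log2 TPM ratio of Lats2 to Lats1 was 1.20 in replicate 1 and 1.19 in replicate 2, and Lats2 made up 69.7 ± 0.104% of the sum of the pair. Sav1, the adaptor (ENSMUSG00000021067.8, chr12:69965012-69987002, minus strand), was at 15.27 and 15.92 TPM, a mean of 15.6 ± 0.460 TPM. It stood 0.98 ± 0.11 above Lats1 on the log2 TPM scale, whereas without the correction for transcript length (CPM, counts scaled to library size) the ratio was reversed, at -0.48. Vgll4 (ENSMUSG00000030315.15, chr6:114860628-114969994, minus strand) was at 17.15 and 15.68 TPM, a mean of 16.4 ± 1.04 TPM. Vgll4, the competitor of the co-activators, lay 0.80 ± 0.11 below Yap1 on the log2 TPM scale.

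**Figure D1:**
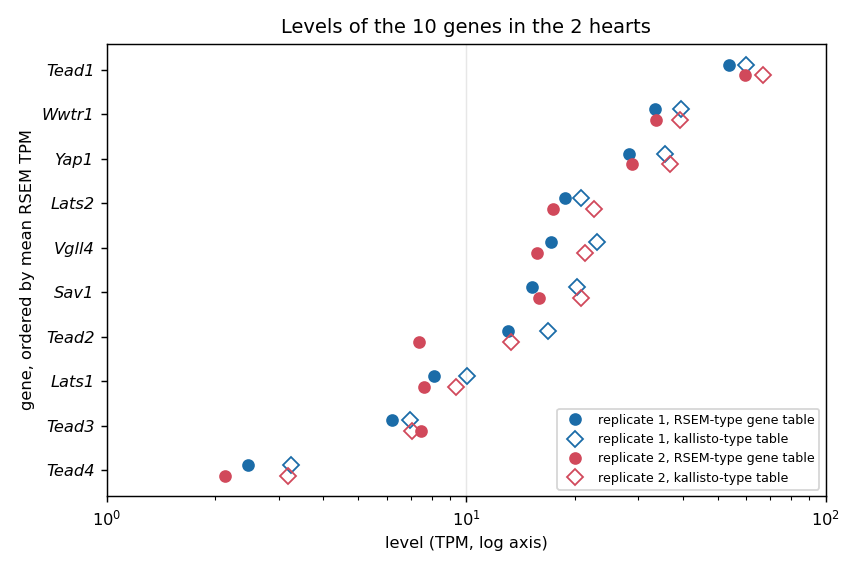
TPM (log axis) of each of the 10 genes in the 2 hearts, filled circles from the RSEM-type gene table and open diamonds from the kallisto-type table, genes ordered by their mean in the former. Tead1 lies highest in both hearts, Tead4 lowest, and the points of Tead2 are the most widely spread, from 7.40 to 16.9 TPM.

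In the order of mean TPM (Tead1, Wwtr1, Yap1, Lats2, Vgll4, Sav1, Tead2, Lats1, Tead3, Tead4), 5 of the 9 neighbouring pairs stood apart. The neighbours that did not stand apart in the RSEM table were Vgll4 and Sav1, Sav1 and Tead2, Tead2 and Lats1, and Lats1 and Tead3. In the kallisto tables Tead2 and Lats1 did stand apart, by 0.63 ± 0.16 on the log2 TPM scale, and so did Lats1 and Tead3, by 0.46 ± 0.09. Lats2 and Vgll4 stood apart in the RSEM table, by 0.14 on the log2 TPM scale, but their order turned in the kallisto tables, with a log2 TPM ratio of -0.03. The other 8 neighbouring pairs had the same order of means in the kallisto tables, with Tead1 highest and Tead4 lowest.

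The transcript tables divide each gene's TPM over its annotated forms, 80 in all for the 10 genes. A single form led in both hearts and both tables for 7 of the 10: Yap1-202, Wwtr1-201, Tead1-201, Tead4-201, Lats1-202, Lats2-201 and Sav1-201. Wwtr1-201 took 99.69% and 97.67% of the Wwtr1 TPM, and Sav1-201 took 90.15% and 91.87% of the Sav1 TPM. The 3 annotated coding transcripts of Lats1 share 1 coding sequence and differ only in their untranslated parts. For Tead2, Tead3 and Vgll4 the leading form changed with the heart or the table. The shares are estimates by the authors from reads that often fit several forms, and reads across individual junctions were not analysed here.

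Tead1 transcripts with both 63-nt exons made up a large part of the estimate. Among the coding Tead1 transcripts that span the site, the upstream exon was in 49.9% and 46.3% of the TPM and the downstream exon in 95.0% and 97.2% (RSEM, replicates 1 and 2). In the kallisto tables those shares were 69.5% and 63.7% for the upstream exon and 88.1% and 90.9% for the downstream exon. The downstream exon was thus the more frequent in both hearts and both tables, while the share of the upstream exon moved between tables by more than between hearts. Transcripts with the upstream exon in place of the downstream one, Tead1-207, took only 3.85% and 2.05% (11.8% and 1.61% by kallisto). The 2 forms that carry both exons and the 12-nt exon that follows them, Tead1-201 and Tead1-206, took 45.5% and 43.2% (52.2% and 53.6% by kallisto).

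The 12-nt exon lies next to the 63-nt pair in Tead1, and Tead3 has an exon of that length at the matching place. They are shown in capitals with the 12 neighbouring coding bases of the transcript on each side, from Tead1-201 and Tead3-206.
Tead1 12-nt exon, chr7:112856053-112856064, plus strand: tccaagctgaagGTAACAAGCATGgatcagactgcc
Tead3 12-nt exon, chr17:28335485-28335496, minus strand: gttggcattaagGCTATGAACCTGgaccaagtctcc
The Tead1 exon was in 70.8% and 71.7% of the TPM of spanning coding transcripts (76.1% and 78.6% by kallisto). Forms with and without it were thus both present in each heart and table. The Tead3 exon is in all 4 coding transcripts that span the site, so its share of 100% follows from the annotation. For Tead3 the upstream 63-nt exon took 100% in both hearts by RSEM and 93.9% and 78.9% by kallisto, the rest falling to Tead3-207 with the downstream exon. The prevailing exon of the pair was thus the downstream one in Tead1 and the upstream one in Tead3. A 174-nt Tead1 exon farther on (chr7:112876075-112876248) was in 89.0% and 84.9% of the spanning TPM by RSEM and in 100% and 97.9% by kallisto.

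Yap1 was divided between forms with and without a 48-nt exon, the insert in the leucine zipper region that is used to tell the named isoforms of YAP apart. The exon is given in capitals between 12 coding bases of Yap1-201 on each side.
Yap1 48-nt exon, chr9:7950492-7950539, minus strand: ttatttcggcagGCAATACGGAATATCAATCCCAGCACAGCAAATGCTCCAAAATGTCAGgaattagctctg
Forms with the exon took 36.2% and 44.8% of the spanning coding TPM by RSEM and 43.1% and 43.5% by kallisto. The shorter form, Yap1-202 with a coding sequence of 1416 nt, therefore led the longer Yap1-201 with 1464 nt in each heart and table. Yap1-202 was at 17.20 and 15.22 TPM and Yap1-201 at 9.55 and 11.54 TPM by RSEM.

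Tead4 was divided by a 129-nt coding exon, printed in capitals with 12 coding bases of Tead4-201 on each side.
Tead4 129-nt exon, chr6:128247960-128248088, minus strand: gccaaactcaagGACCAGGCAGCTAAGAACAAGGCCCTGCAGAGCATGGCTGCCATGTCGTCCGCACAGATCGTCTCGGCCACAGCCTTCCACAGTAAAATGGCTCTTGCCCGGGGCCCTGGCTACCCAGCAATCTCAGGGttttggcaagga
It directly follows the 63-nt Tead4 exon in the coding sequence. Tead4-201, the only annotated spanning form with the exon, took 65.6% and 67.7% of the spanning TPM (56.2% and 55.1% by kallisto). The whole gene rests on the 181 and 150 expected counts given above, the fewest of the 10 genes.

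**Figure D2:**
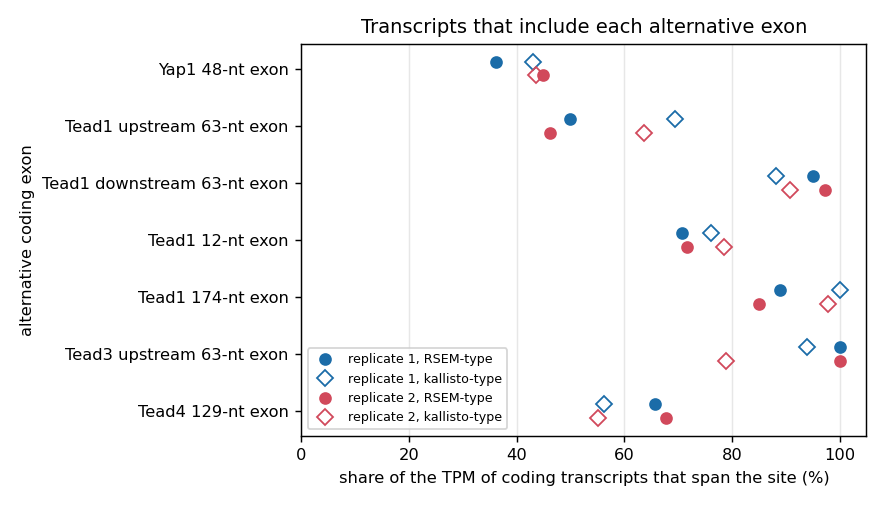
Share of the TPM (percent) of coding transcripts spanning each alternative exon that belongs to forms with the exon, for each heart (colours) and table (filled circles RSEM-type, open diamonds kallisto-type). The upstream exon of Tead1 lies between 46.3% and 69.5%, and the Yap1 exon between 36.2% and 44.8%.

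A large part of the Vgll4 estimate lay in a form that the annotation does not class as coding. Vgll4-205, annotated as a processed transcript, was at 7.40 and 7.33 TPM, and the coding form Vgll4-201 was at 7.70 and 6.88 TPM (RSEM). Vgll4-205 thus made up 43.2% and 46.7% of the Vgll4 TPM by RSEM and 42.4% and 46.7% by kallisto, and protein-coding transcripts made up between 45.2% and 52.1% across hearts and tables. Of its 2198 nt, 1333 are shared with Vgll4-201, 69 form a first exon of its own and 796 extend the 3′ end. It holds 589 of the 861 coding bases of Vgll4-201. Its longest reading frame that opens with ATG, of 606 nt with the stop codon, starts 14 bases before the end of its own first exon and ends at the stop codon of Vgll4-201, so the shared bases are read in the frame of the annotated protein. The junction is given with the last 18 bases of that first exon (chr6:114875039-114875107, minus strand) in capitals and 12 shared bases after it.
Vgll4-205 first junction: GGCAATGATTAAAGTGAGgaataagactgt
The frame opens at the ATG within the capitals. Whether it is translated was not measured. The parts of VGLL4 that bind TEAD are known to lie towards its carboxy terminus.

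**Figure D3:**
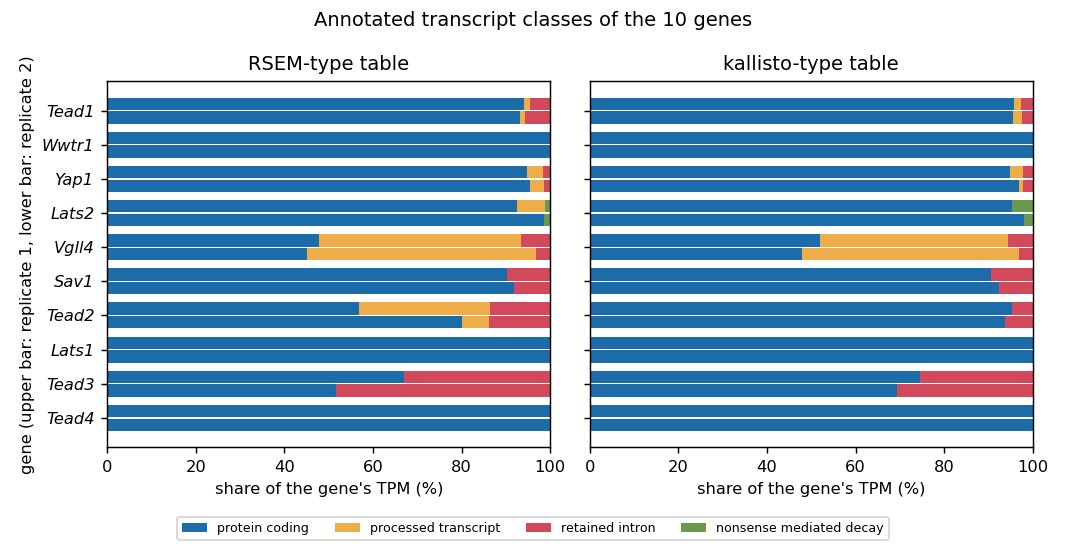
Stacked bars give the share of each gene's TPM (percent) in transcripts annotated as protein coding, processed transcript, retained intron or nonsense mediated decay, for replicate 1 (upper bar) and replicate 2 (lower bar), in the RSEM-type (left) and kallisto-type (right) tables. Vgll4 has a large processed-transcript share in both tables, and Tead3 the largest retained-intron share, between 25.4% and 48.3%.

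Retained-intron forms were most prominent for Tead3, with 33.0% and 48.3% of its TPM by RSEM and 25.4% and 30.7% by kallisto. The leading Tead3 form was Tead3-206 in both hearts by kallisto, with 49.9% and 34.6%, and in replicate 1 by RSEM with 46.95%, but it held 22.58% in replicate 2. For Sav1 the retained-intron share was 9.85% and 8.13% by RSEM and 9.47% and 7.64% by kallisto, and for Tead2 it was 13.7% and 13.8% by RSEM and 4.78% and 6.20% by kallisto. Wwtr1, Lats1, Lats2 and Tead4 have no annotated retained-intron transcript, so no share could be measured for them.

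For each gene the rounded expected counts of the 2 hearts were set against each other in an exact conditional binomial test, two-sided, with Benjamini-Hochberg adjustment over the 16517 genes tested. The test compares 2 libraries of 1 group and allows for counting error only, so it does not compare conditions. Genes were called where the adjusted p was under 0.05 and the difference reached 2-fold. Of the 10 members 0 were called, beside 1.27% of all genes tested (101 higher and 108 lower in replicate 2). At an unadjusted p under 0.05 there were 3 members, beside 27.0% of all genes, and an edgeR exact test with a preset variation of 0.1 between animals also called 0 members, with 0 at an unadjusted p under 0.05. At an adjusted p under 0.05 and any fold there were 2 members, Tead1 and Tead2, beside 17.3% of all genes. Tead2 missed that threshold with kallisto counts (adjusted p 0.13 by the exact binomial test) and with no filter on low counts (0.0577), and Lats1 passed it with total counts as library sizes (0.0473). The median log2 ratio of replicate 2 over replicate 1 was -0.04 over the members and 0.00 over all genes tested, with 4 members higher and 6 lower in replicate 2.

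Tead1 was higher in replicate 2 by 0.12 ± 0.02 on the log2 count scale (counting SE), with an adjusted p of 1.91e-08 by the exact binomial test. The ratio of Tead1 TPM was 0.14 by RSEM and 0.16 by kallisto, so all 3 scales gave the same direction at a fold well below the threshold. Tead2 was lower in replicate 2 by counts, 511 against 414, a log2 ratio of -0.26 ± 0.10 with an adjusted p of 0.0382 by the same exact test. The Tead2 difference was far larger on the TPM scale of the RSEM table, with a log2 ratio of -0.81, than in the kallisto table, with -0.34. The effective length that RSEM gave to Tead2 was 1252 nt in replicate 1 and 1822 nt in replicate 2, which enters the TPM as a divisor. Tead2-204, a processed transcript of 460 nt, was given 43.43 expected counts and 3.84 TPM in replicate 1 and 5.06 expected counts and 0.46 TPM in replicate 2, and 0 in both hearts by kallisto. The point TPM of Tead2 also lay below the interval deposited with it in both hearts, 13.2 to 19.1 TPM in replicate 1 and 8.87 to 13.3 TPM in replicate 2.

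Tead3 turned its direction with the scale: its log2 ratio was -0.06 by counts, 0.27 by TPM in the RSEM table, where its effective length was 0.791 times that of replicate 1, and 0.02 by kallisto. Lats2 also differed in sign between tables, with -0.11 by RSEM and 0.12 by kallisto TPM. The other 6 members had log2 count ratios between -0.23 (Tead4) and 0.07 (Sav1), and their adjusted p by the exact binomial test ranged from 0.108 (Lats1) to 0.83 (Wwtr1). Wwtr1 and Yap1 were the closest between hearts, with log2 count ratios of 0.02 for each. The atrial, red cell and fat cell markers given above moved between the same hearts, and their part in the Tead1 and Tead2 differences was not tested.

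**Figure D4:**
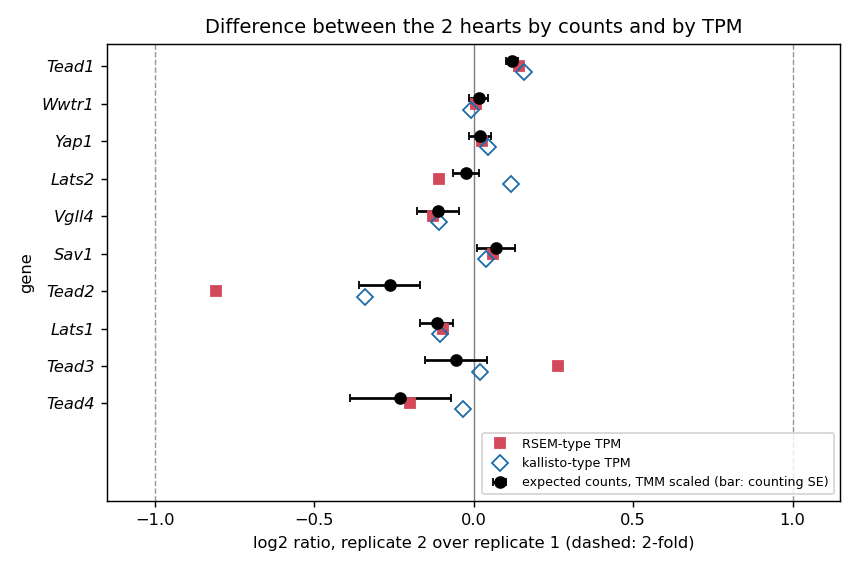
Log2 ratio of replicate 2 over replicate 1 for each member by expected counts (black circles, bars are the counting SE), by RSEM-type TPM (red squares) and by kallisto-type TPM (open blue diamonds), with dashed lines at 2-fold. All points lie within the lines, and Tead2 and Tead3 show the widest gaps between counts and RSEM-type TPM.

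The remaining pathway was present almost in full: 65 of 71 further genes on the pathway lists were detected. All 10 upstream kinases and MOB cofactors were detected, and the highest was Map4k4, a kinase that can act on LATS beside MST1 and MST2, at 86.95 and 87.88 TPM. It was followed by Taok2 at 27.1 ± 0.877 TPM and Taok1 at 27.0 ± 0.0778 TPM (SD, n = 2), kinases that act on MST and LATS. Stk3, which encodes MST2, was at 6.85 and 5.84 TPM and Stk4, which encodes MST1, at 8.42 and 9.18 TPM, a log2 ratio of -0.47 ± 0.25 that was within 3 SD. The LATS cofactor Mob1b was at 21.06 and 19.41 TPM and Mob1a at 14.15 and 15.35 TPM, a log2 ratio of Mob1a to Mob1b of -0.45 ± 0.17, also within 3 SD, though apart in the kallisto tables at -0.53. No gene of this list was called between the hearts, beside 1.27% of all genes tested.

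Of the scaffolds and cell-surface inputs, 12 of 13 were detected. Nf2, which encodes the scaffold merlin, was highest at 39.5 ± 0.431 TPM, with Amotl2 at 30.7 ± 1.78 TPM and Amotl1 at 26.7 ± 2.23 TPM, angiomotin-like proteins that bind YAP (SD, n = 2). By kallisto Amotl2 was above Nf2 in both hearts, at 55.96 and 65.27 against 50.88 and 50.27 TPM. Wwc1, which encodes the scaffold KIBRA, was below 1 TPM in both hearts, at 0.57 and 0.79 TPM. All 3 LATS inhibitors of the Ajuba family were detected, with Limd1 at 20.04 ± 0.0566 TPM, Wtip at 9.71 ± 1.10 TPM and Ajuba at 6.28 ± 0.276 TPM. All 12 genes of the STRIPAK complex, a phosphatase assembly that acts on the MST kinases, were detected, and its highest members were Slmap at 141.46 and 111.13 TPM, Ppp2r1a at 106 ± 2.34 TPM and Sike1 at 48.2 ± 1.87 TPM. By kallisto Sike1 was at 43.6 and 35.7 TPM and below Strn3, at 46.3 and 46.9 TPM. Of 11 genes for 14-3-3 proteins, which hold phosphorylated YAP in the cytoplasm, and for its degradation, 10 were detected. Ywhae was highest at 297.71 and 303.21 TPM, followed by Ywhag at 129.6 ± 0.283 TPM and Ywhaz at 99.8 ± 3.61 TPM, and Sfn was at 0.51 and 0.58 TPM. By kallisto Ywhaz was above Ywhag in both hearts, at 153.2 and 138.3 against 131.4 and 132.7 TPM. None of these lists held a gene called between the hearts, beside 1.27% of all genes tested. Below the 2-fold limit of the call, Slmap had a log2 count ratio of -0.21 (adjusted p 2.48e-22), Fat1 of -0.19 (2.18e-13) and Amotl1 of 0.15 (8.08e-07), all by the exact binomial test. By the same test Strip2 was higher in replicate 2 (0.11, adjusted p 0.000553). Ywhaz (-0.08, 0.00264), Ppp2ca (-0.09, 0.0074), Fbxw11 (-0.13, 0.0138) and Wtip (-0.25, 0.0345) were lower. At any fold 17.3% of all genes tested passed an adjusted p under 0.05.

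Vgll4 was the main vestigial-like gene in these hearts. Vgll3, another TEAD-binding cofactor, was at 2.20 and 1.88 TPM. Vgll1 was listed at 0 in both hearts, and Vgll2 was at 0 and 0.06 TPM with 0 and 3 expected counts. Vgll4 therefore exceeded each of the other 3 in both hearts.

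The target signature of YAP and TAZ, of 22 genes that include Lats2, had 20 genes detected, 21 tested and 1 called, beside 1.27% of all genes tested. Ankrd1, which encodes a muscle ankyrin-repeat protein and is a much-used readout of YAP activity, was at 209.05 and 86.59 TPM in replicates 1 and 2, from 11946 and 4903 expected counts. It was the highest of the signature in both hearts and differed between them by a log2 count ratio of -1.24 ± 0.02 (counting SE), past both thresholds of the call. Of the 21 tested signature genes, 14 were higher and 7 lower in replicate 2, beside 8357 higher and 8160 lower of all 16517 genes tested. The median log2 ratio of the signature was 0.04, beside 0.00 over all genes tested. Ankrd1 was not the only lower one. Tgfb2 was at 6.72 and 4.73 TPM, a log2 count ratio of -0.52 that stayed below 2-fold, with an adjusted p of 7.32e-11 by the exact binomial test. Ccdc80 was at 51.67 and 50.80 TPM and Axl at 45.62 and 45.96 TPM, the next highest in the RSEM table, while by kallisto Amotl2 was above both in both hearts. Ccn2, which encodes connective tissue growth factor, was at 27.44 and 30.53 TPM and Ccn1, a matricellular protein gene of the same family, at 15.89 and 17.46 TPM, and neither was called. Below 2-fold, other signature genes also had an adjusted p under 0.05 by the exact binomial test. Higher in replicate 2 were Axl (log2 count ratio 0.19, adjusted p 1.38e-08), Nt5e (0.31, 0.00266), Crim1 (0.17, 0.000798) and Ccn2 (0.13, 0.0324). Asap1 was lower (-0.15, 0.0322). At any fold 17.3% of all genes tested passed that limit. Fjx1, at 0.98 and 0.83 TPM, and Foxf2, at 0.04 and 0.03 TPM, were below 1 TPM in both hearts. Ankrd1 is expressed by heart muscle as well as being a YAP target, and the 5 cardiomyocyte markers summed to 26555 and 28076 TPM with none called, while the atrial, red cell and fat cell lists moved between the same hearts, and their part in the Ankrd1 difference was not tested.

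**Figure D5:**
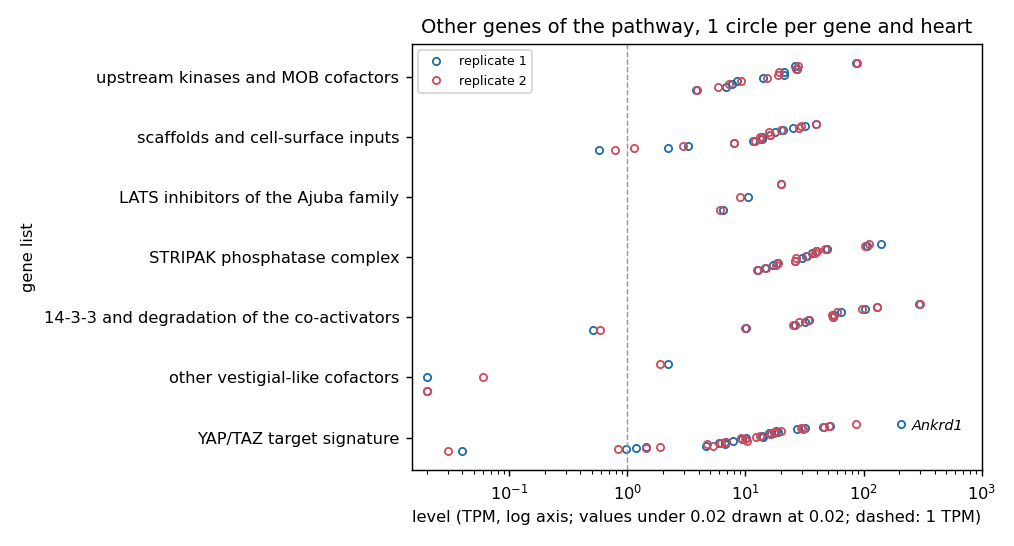
TPM (log axis) of each gene of the 7 pathway lists, 1 circle per gene and heart, with values under 0.02 TPM drawn at 0.02 and a dashed line at 1 TPM. The circles of the 2 hearts lie close together for most genes, and Ankrd1 is the called exception at 209.05 and 86.59 TPM.

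The 4 muscle genes with known MCAT elements were each above the 10 members in mean TPM. Their adjusted p by the exact binomial test ranged from 8.29e-121 (Acta1) to 8.15e-27 (Acta2). None was called, because none reached 2-fold, beside 1.27% of all genes tested that were called. Tnnt2, which encodes cardiac troponin T, was at 3021 and 3171 TPM, Myh7, the slow myosin heavy chain, at 749 and 860 TPM, Acta2, smooth muscle actin, at 211 and 243 TPM, and Acta1, skeletal actin, at 91.29 and 146.36 TPM. All 4 had log2 count ratios above 0, with a median of 0.18, beside 8357 of 16517 genes tested. Acta1 lay at 0.69, which is 1.62-fold. The cardiomyocyte markers had a median log2 count ratio of 0.17, with 4 of 5 above 0, and the atrial markers 0.90, and their part in the muscle gene ratios was not tested.

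The letters CATTCC, the core of the MCAT element, were searched on both strands (as CATTCC or GGAATG, with no overlap with another motif considered) in the RefSeq promoter table on GRCm38.p6, which gives 250 bases before and 50 after each gene start. Of 32851 such promoters of 300 bases, 14.7% held the letters, and 16.6% of 27025 genes had at least 1 such promoter. The table holds 8 of the 10 members, and 6 of these 8 had a match: Yap1, Wwtr1, Tead3, Lats2, Sav1 and Vgll4, in 8 of the 12 promoters listed for the members. Of the target signature, 15 of 22 genes were in the table and 7 had a match. The 4 muscle genes had a match each, but they were listed for known MCAT elements, so this count was largely set by that choice. No test was made of these counts, which describe letters in a window and not binding. Windows around the letters, which are in capitals, are given in the sense of the gene for the co-activators Yap1 and Wwtr1, the adaptor Sav1, the co-repressor Vgll4, and Ankrd1 and Ccn1, the targets described above.
Yap1, 141 bases before the start, chr9:8004712-8004757, minus strand: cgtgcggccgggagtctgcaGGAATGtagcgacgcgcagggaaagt
Wwtr1, 136 bases before the start, chr3:57576021-57576066, minus strand: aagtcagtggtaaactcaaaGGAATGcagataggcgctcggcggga
Sav1, 106 bases before the start, chr12:69987083-69987128, minus strand: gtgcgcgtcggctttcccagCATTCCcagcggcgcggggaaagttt
Vgll4, 82 bases before the start, chr6:114969260-114969305, minus strand: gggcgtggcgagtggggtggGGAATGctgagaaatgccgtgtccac
Ankrd1, 123 bases before the start, chr19:36119942-36119987, minus strand: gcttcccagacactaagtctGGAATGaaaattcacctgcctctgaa
Ccn1, 103 bases before the start, chr3:145650063-145650108, minus strand: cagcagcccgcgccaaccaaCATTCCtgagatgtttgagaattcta
Ankrd1 has a further match 210 bases before its start. Lats1 and Tead2 had no match, which says only that these letters are not in their windows.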

How the data were processed

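Total RNA libraries from 2 hearts were analysed. The authors' deposited gene tables give expected counts, TPM and interval bounds, the first deposited transcript tables the same with each form's percent of the TPM of its gene (IsoPct), and the second deposited transcript tables estimated counts and TPM. Per the file headers their columns are those of RSEM and kallisto. Assembly mm10 and GENCODE M21 are given in the text deposited with the libraries. The aligner, the counting tools and their versions were not given in the sources used here. Reads were assigned on a C57BL/6J reference although the animals are crosses with CAST/EiJ.

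The 26248 entries with numeric identifiers, holding 3.84 and 2.92 expected counts, and the spike-ins entered neither library sizes nor tests. Counts were rounded, scaled with TMM (edgeR 4.0.16, R 4.3.3) and tested by an exact conditional binomial test (scipy 1.17.1) where both libraries summed to 20 counts or more, with a prior count of 0.5 in fold changes. A quasi-likelihood fit has no residual degrees of freedom with 2 libraries. DESeq2 1.42.0 size factors were an alternative. On simulated counts, 100% of 200 genes changed 3-fold were called. Those counts held counting error alone, as the test assumes, and the change was set above the 2-fold limit. The simulation therefore checks the calculation and says nothing of variation between animals. Ratios within a heart used TPM + 0.1. Exon shares use protein-coding transcripts that hold both neighbouring exons.

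Named were all 10 members, the 3 highest of each pathway list, genes called, up to 5 per list below 1 TPM in both hearts, the genes of preset pairs, Ccn1, Ccn2 and Tgfb2, and the muscle genes. Ccn1, Ccn2, Tgfb2 and further list genes with an adjusted p under 0.05 between the hearts were added after their values were seen. Members and lists were chosen with earlier results of these data known. The alternatives are described in the closing section.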

Additional observations from a re-analysis of the deposited data

How the results depend on the processing

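No paired analysis was possible because the 2 libraries form 1 group. In all 6 alternatives of the test between hearts 0 members were called, while the count of all genes called, 209, became 453 at 1.5-fold and 122 with the edgeR exact test at a preset variation of 0.1. Of the 10 pairs, those 8 that stood apart kept their sign and stayed apart under a pseudocount of 1 and in the kallisto tables. Without the correction for length, Sav1 to Lats1 was reversed at -0.48, Stk3 to Stk4 came to stand apart at -0.91 and Mob1a to Mob1b at -0.92 (-0.53 by kallisto). Among neighbours in the order of levels, Lats2 to Vgll4 was reversed by kallisto at -0.035 and Tead2 to Lats1 without the length correction at -1.78. Vgll4 to Sav1, which did not stand apart, also changed sign without the length correction, at -0.22. By kallisto Tead2 to Lats1 and Lats1 to Tead3 came to stand apart, at 0.63 and 0.46. Sav1 to Tead2 and Lats1 to Tead3 did so without the length correction, at 1.31 and 1.86. Leaving out a replicate left Tead2 to Tead1 between -2.99 and -2.04 and the other 9 of the 10 pairs with their sign. Without replicate 1 the neighbours Vgll4 to Sav1, at -0.02, and Tead2 to Lats1, at -0.04, turned. Exon shares by kallisto, an alternative chosen after seeing the data, moved most for the Tead1 upstream exon, from 48.1% to 66.6%. TPM rescaled over nuclear protein-coding genes raised each member's level by a like factor, for Tead1 to 134 TPM. By kallisto the mean level of every member but Tead3 was above the RSEM mean by more than its SD. Vgll4, for example, was at 22.3 TPM by kallisto against 16.4 TPM, and Sav1 at 20.6 against 15.6 TPM. With 2 animals the SD is itself poorly known, and the depth of Tead4 limits its exon share.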
